A study of Mus musculus with 2 samples.

Results

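The cells described here are contractile smooth muscle cells of the mouse aorta that carry Rgs5. They were chosen by their own values: a deposited value of at least 20 for Myh11 and at least 3 for Rgs5, under 2 for Tnnt2, under 5 for Igfbp2, and sums under 5 for C1qa, C1qb and C1qc and under 2 for Pecam1 and Cdh5. The rule kept 65 of 7358 cells, 42 from the GLPG0187 library and 23 from that of the controls, which were given vehicle. They came from 2125 cells with Myh11 of at least 20, of which 1516 were from the GLPG0187 mice and 609 from the vehicle mice. The other 1474 and 586 of these Myh11-high cells served as the comparison. A deposited value is a depth-corrected whole number per gene and cell, so levels are in these units, and every pair of values below gives the GLPG0187 library first and the vehicle library second.

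The study profiled single cells of the aortic root and ascending aorta of Fbn1C1041G/+ mice, a model of Marfan syndrome with a mutation in fibrillin-1. One group received GLPG0187, which the submitters describe as an inhibitor of alpha-v integrin, and the other received vehicle, each day from 6 to 16 weeks of age, and the tissue was taken at 16 weeks. Both groups carried the Fbn1 mutation, so no library comes from mice without it. Male and female aortas were pooled in equal numbers into 1 library per group, and the sources used here do not give the number of animals in a pool. With 1 library per group there is no test of any difference, and treatment cannot be told apart from the animals, the digestion or the library preparation.

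Rgs5 encodes a regulator of G protein signalling, a protein that speeds up GTP hydrolysis by G-alpha subunits and so shortens signalling from G protein-coupled receptors such as those for angiotensin II and endothelin. It is widely used as a marker of pericytes and of smooth muscle cells of small vessels, and its level differs between arteries. Contractile smooth muscle cells of the aortic media are defined by smooth muscle myosin (Myh11), smooth muscle actin (Acta2), transgelin (Tagln) and calponin (Cnn1). Those of the aortic root and base derive in part from the second heart field, whose progenitors express the homeodomain factor Isl1.

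The 250 bases upstream of the Rgs5 and Vcan starts are shown because Rgs5 set the rule and Vcan was higher in both libraries on both scales used below. Both come from RefSeq (GRCm38.p6) and are written 5′ to 3′ on the gene's strand. They lie at chr1:169655251-169655500 (plus strand) and chr13:89742513-89742762 (minus strand). Capitals mark matches on either strand to 5 motifs: the CArG box bound by serum response factor, AGATAA, read by zinc-finger proteins of the GATA family, TGCTGA, the core of the MAF recognition element, TAATTA, read by homeodomain factors, and TATAAA, bound by the general transcription machinery.
Rgs5: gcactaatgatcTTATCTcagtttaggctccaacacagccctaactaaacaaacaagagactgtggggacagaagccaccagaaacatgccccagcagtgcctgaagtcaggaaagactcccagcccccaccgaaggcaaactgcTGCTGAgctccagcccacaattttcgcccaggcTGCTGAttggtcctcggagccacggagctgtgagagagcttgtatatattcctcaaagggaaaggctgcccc
Vcan: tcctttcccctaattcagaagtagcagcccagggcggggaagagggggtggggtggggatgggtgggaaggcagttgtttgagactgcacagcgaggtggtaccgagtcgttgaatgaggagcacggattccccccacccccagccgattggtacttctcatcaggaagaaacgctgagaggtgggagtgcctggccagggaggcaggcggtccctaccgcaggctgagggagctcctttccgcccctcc
The Rgs5 window held 1 match to the GATA motif, on the minus strand at positions -238 to -233 from the start, and 2 matches to the MAF motif on the plus strand, at -105 to -100 and -72 to -67. The Vcan window held no match to the 5 motifs. Among all 27025 promoter windows of this length, 10.3% held the GATA motif, 15.8% the MAF motif, 1.40% a CArG box, 4.90% the homeodomain motif and 13.0% TATAAA. These matches describe letters in a window and are not shown to be bound. Of the 6 marker genes proposed for these cells, 4 had an entry (Rgs5, Isl1, Vcan and Des).

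Applied step by step, the rule found Rgs5 of at least 3 in 106 Myh11-high cells in the GLPG0187 pool and in 35 in the vehicle pool. The limit on Tnnt2 (cardiac troponin T) removed most of those not kept, leaving 57 and 26. The limit on Igfbp2 left 47 and 23, that on C1q left 46 and 23, and that on Pecam1 and Cdh5 left 42 and 23. The cells kept were 2.77% of Myh11-high cells under GLPG0187 (exact Clopper-Pearson 95% interval 2.00 to 3.73) and 3.78% under vehicle (2.41 to 5.61). The difference was -1.01 percentage points, with an interval, built from both exact intervals, of -3.00 to 0.663 points. As shares of all cells they were 0.955% (0.689 to 1.29) and 0.777% (0.493 to 1.16). These intervals cover counting error only.

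Because each pool held both sexes, cells with Xist and no Y-linked value, and cells with the reverse, could be counted apart. Among Xist-only Myh11-high cells the selected cells were 11 of 413 (2.66%) under GLPG0187 and 12 of 181 (6.63%) under vehicle, a difference of -3.97 points (-8.82 to -0.201). Among Y-only cells they were 26 of 970 (2.68%) and 9 of 380 (2.37%), a difference of 0.312 points (-1.96 to 2.08). These intervals also cover only the counting of cells within 1 library per group, so neither a difference between treatments nor one between the sexes was tested.

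Most Rgs5-bearing cells of the tissue had little Myh11. Rgs5 reached 3 in 478 and 285 cells from GLPG0187 and vehicle mice, and 372 and 250 of these had Myh11 under 20. In those cells 10 fibroblast markers summed to a mean of 167 and 154 per cell, against 12.6 and 21.7 in the selected cells. Root mesenchymal markers summed to 25.4 and 28.0 against 0.905 and 1.09, and chondrocyte and valve markers to 11.9 and 11.2 against 1.19 and 1.30. The mean sum of the pericyte markers was lower in them, at 9.71 and 11.4 against 15.5 and 20.2, with single cells up to 63 and 99. Single markers did not all follow. Ndufa4l2 was above 0 in 13.2% and 13.6% of them, against 4.76% and 13.0% of the selected cells. Mean Higd1b was 0.0484 and 0.176 in them, against 0.619 and 0.174. No cell type was assigned to these cells. As a measure of free RNA, C1q-high cells without Myh11, which are macrophages by that choice and should lack Rgs5, were examined. They had Rgs5 above 0 in 6 of 160 cells (3.75%) and 3 of 93 cells (3.23%), at medians of 3370.5 and 3150 detected genes. Requiring Myh11 to be absent favours macrophages with little free smooth muscle RNA, so these shares may understate the background.

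The selected cells carried the contractile genes at levels near those of the other Myh11-high cells. All 10 smooth muscle markers (Acta2, Tagln, Cnn1, Myl9, Mylk, Smtn, Lmod1, Actg2, Synpo2 and Myocd) were detected in at least 25% of the cells of each library. Acta2 ranged from 86 to 568 per cell under GLPG0187 (median 255) and from 97 to 528 under vehicle (median 287). Its means of 268 and 275 lay below the 321 and 313 of other Myh11-high cells, a log2 ratio of -0.25 and -0.17. Tagln averaged 223 and 174 against 260 and 259 (log2 -0.21 and -0.55). Of the 16 contractile genes, 0 were 1.5-fold higher and 0 were 1.5-fold lower in both libraries, against 2.52% and 2.44% of all measured genes. Their median log2 ratio was 0.00 and 0.02. Medians of detected genes per cell were 4003.5 and 4262, close to the 4083.5 and 4204 of the comparison cells.

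Markers of other cell types were low, apart from those of pericytes and fibroblasts. Lymphocyte and erythrocyte markers were at 0 in all selected cells. Endothelial markers summed to a mean of 0.310 and 0.522 per cell and macrophage markers to 0.405 and 0.261. The 16 pericyte markers, of which 13 and 15 were above 0, summed to a mean of 15.5 (5 to 71, median 13) under GLPG0187 and 20.2 (6 to 34, median 20) under vehicle. The comparison cells had means of 12.9 and 12.5, medians of 12 in each and 90th percentiles of 20 and 19. The vehicle cells were thus raised as a set, with a median above the 90th percentile of the others, whereas the GLPG0187 median was near that of the others. Without the Higd1b-positive cells described next, the medians were still 13 and 20. Much of the sum comes from genes that other Myh11-high cells also carry, such as Cspg4 (means of 3.45 and 4.61 against 3.56 and 3.31), Mcam (3.07 and 4.17 against 3.81 and 3.65) and Rgs4. Higd1b, a defining marker of capillary pericytes, was above 0 in 2 of 42 and 2 of 23 selected cells and in 4 of 1474 and 1 of 586 others. Both such cells of the GLPG0187 library had Rgs5 values of 84 and 125, Higd1b of 13 each, Notch3 of 9 and 8 and Rgs4 of 15 and 16, with Npnt, which averaged 12.5 over the GLPG0187 cells, at 0. The 2 such vehicle cells had Rgs5 of 32 and 155 and Higd1b of 3 and 1. Lum, a fibroblast proteoglycan, reached 10 in 3 cells of each library. The markers did not all go the same way: Art3 was lower than in the others in both libraries, and Vtn was at 0 in all selected cells. By these markers the label covers contractile cells. The vehicle cells as a set had a higher sum of the pericyte markers, and a few cells in each library held Higd1b or high Lum. The part of the vehicle shift in pericyte markers and of the cells with high Lum in the results below was not tested. Without the 4 Higd1b-positive cells, 10 of the 12 genes named below as highest stayed at least 1.5-fold higher in both libraries (all but Ndufa4l2 and Gadd45b), as did all 12 named as lowest at 1.5-fold lower. Leaving out Higd1b-positive cells may miss similar cells. A vehicle cell with Rgs5 of 9, Notch3 of 10, Ndufa4l2 of 5 and Npnt of 0 had Higd1b at 0 and stayed in.

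Rgs5 itself, which the rule used, ranged from 3 to 161 per cell under GLPG0187 (median 8.5, mean 22.2) and from 3 to 155 under vehicle (median 8, mean 23.1). The cells were strongly skewed, and 7 of 42 and 4 of 23 reached 30. Just outside the limit, 20 and 10 otherwise eligible cells had an Rgs5 value of 2, and just inside it 8 and 6 had a value of 3. Vcan averaged 5.6 and 1.80 in the cells at 2 and 2.63 and 1.17 in the cells at 3, so Vcan did not step up at the limit.

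**Figure D1:**
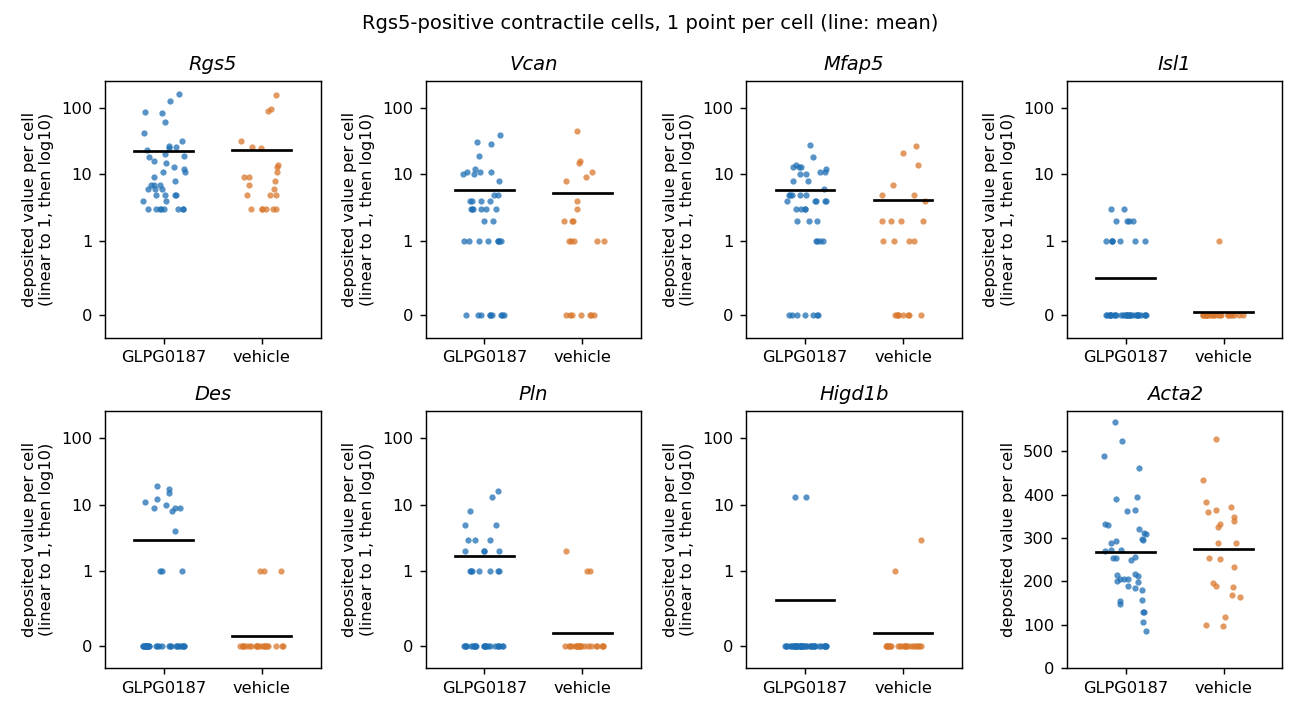
Deposited values of 8 genes in each Rgs5-positive cell, by library (42 GLPG0187 and 23 vehicle cells, horizontal line at the mean; all axes except that of Acta2 are linear to 1 and log10 above). Isl1 and Des are above 0 in 13 and 14 GLPG0187 cells but in 1 and 3 vehicle cells, while Vcan, Mfap5 and Acta2 overlap between the libraries.

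Of the genes proposed as markers, the matrix genes Vcan and Mfap5 were higher than in other Myh11-high cells in both libraries. Vcan encodes versican, a large chondroitin sulphate proteoglycan of the aortic matrix. It ranged from 0 to 39 in the GLPG0187 cells (median 3, mean 5.88) and from 0 to 44 in the vehicle cells (median 1, mean 5.26), against means of 1.23 and 0.985 in the comparison cells. Vcan was above 0 in 78.6% and 69.6% of the selected cells and in 41.6% and 39.4% of the others, and in 10.6% and 7.53% of the C1q-high cells. Its log2 ratio was 2.26 and 2.42, and 2.05 and 1.84 without the highest cell. In the vehicle library it was 2.45 among the 12 Xist-only cells and 0.66 among the 9 Y-only cells. A Vcan value of at least 10 was found in 10 of 42 and 4 of 23 selected cells, but in only 22 of 1474 and 6 of 586 others.

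Mfap5 encodes a glycoprotein of fibrillin microfibrils, the structures affected by the Fbn1 mutation that both groups carry. It averaged 5.76 (0 to 28, median 4) and 4.13 (0 to 27, median 1) against 2.39 and 1.99, a log2 ratio of 1.27 and 1.06. In the vehicle library the log2 ratio was 1.58 among Xist-only cells and -0.30 among Y-only cells, so there the higher level was seen in cells of 1 sex. Maf, a basic leucine zipper transcription factor, averaged 0.738 and 0.609 against 0.575 and 0.578 and was above 0 in 38.1% and 30.4% of selected cells against 33.4% and 34.1%. Its log2 ratios of 0.37 and 0.09 lay under 1.5-fold in both libraries.

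**Figure D2:**
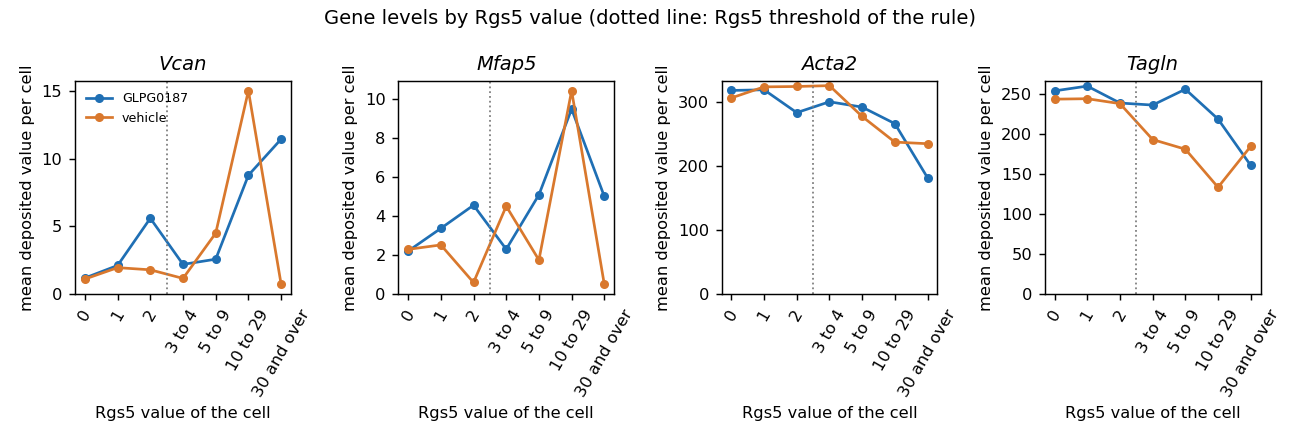
Mean deposited value per cell of Vcan, Mfap5, Acta2 and Tagln (vertical axes) in Myh11-high cells that pass the exclusions, by the Rgs5 value of the cell (horizontal axis), with the Rgs5 limit of the rule as a dotted line. Points at 30 and over stand for 7 GLPG0187 and 4 vehicle cells, and Acta2 is lowest there in both libraries.

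The selected cells also differed among themselves with their Rgs5 value. In the GLPG0187 library Vcan averaged 2.20 in the 10 cells with Rgs5 of 3 or 4, 2.58 in the 12 with 5 to 9, 8.77 in the 13 with 10 to 29 and 11.4 in the 7 with 30 or more. In the vehicle library the corresponding values were 1.17, 4.50 and 15 in 6, 8 and 5 cells, but 0.750 in the 4 cells with the highest Rgs5. The libraries thus shared the increase up to 29 and parted above it, on very few cells. Acta2 averaged 301, 293, 267 and 182 over these Rgs5 ranges under GLPG0187 and 326, 278, 238 and 236 under vehicle. Of the 13 GLPG0187 cells with Isl1, 11 had Rgs5 of at least 10. Across all eligible Myh11-high cells (730 and 293) the rank correlation of Rgs5 with any gene was weak. Vcan had a Spearman rho of 0.22 and 0.13, Foxp2 of 0.19 and 0.15 and Rgs4 of 0.13 and 0.24. The other genes among the 10 most like Rgs5 were Rasl10b, Higd1b, Astn1, Sfrp2, Casq2, Col12a1 and Bmp1. The cells of a library share their preparation, and correlations this weak in sparse values are given as a description only.

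Isl1 and Des stood apart between the libraries, on few cells. Isl1 was above 0 in 13 of 42 GLPG0187 cells (31.0%, highest value 3) and in 1 of 23 vehicle cells (4.35%, value 1). The difference was 26.6 percentage points (4.53 to 43.3), while other Myh11-high cells had 4.88% and 4.27%. That interval, like those of the differences below, covers only the counting of cells within 1 library per group. No difference between treatments was tested, and Isl1 was proposed as a marker with earlier results of these data known. Isl1 was above 0 in 0 of 160 and 1 of 93 C1q-high cells, a background that may be understated by the choice of cells without Myh11. The GLPG0187 share of Isl1 was above this background and above the other Myh11-high cells of its library. Isl1 was present in 4 of 11 Xist-only and 9 of 26 Y-only GLPG0187 cells, and in 1 of 12 and 0 of 9 vehicle cells.

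Des encodes desmin, the muscle intermediate filament protein. It averaged 3.00 in the GLPG0187 cells (0 to 19, above 0 in 14 of 42) and 0.130 in the vehicle cells (0 to 1, above 0 in 3 of 23), against 2.75 and 2.69 in the comparison cells. The share above 0 differed by 20.3 points, with an interval of -4.44 to 39.5. The comparison cells include Tnnt2-positive cells, which the rule removes from the selected ones. Against cells under the same exclusions, with means of 1.70 and 1.20, the log2 ratio of Des was 0.82 and -3.09, in place of 0.13 and -4.24. By these means the vehicle cells were low in Des against either set, and the GLPG0187 cells were near the first and above the second. Des was above 0 in 13.0% of the vehicle cells (2.78 to 33.6), against 28.0% of the first set and 18.1% of the second. In the GLPG0187 library it was above 0 in 33.3%, against 28.7% and 21.1%. A Des value of at least 8 was found in 10 of 42 and in 0 of 23 cells, which allows a vehicle share of up to 13.0% (3 of 23 cells). Pln encodes phospholamban, the inhibitor of the sarcoplasmic reticulum calcium pump. Like Des it was lower in the vehicle cells, at means of 1.69 (above 0 in 19 of 42) and 0.174 (3 of 23) against 1.32 and 1.44. That difference rested on the Rgs5 limit. With a limit of 2 in place of 3, the log2 ratio of GLPG0187 over vehicle was 0.68 for Pln in place of 3.21, while that of Des was 3.93 in place of 4.42.

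The exclusion of Tnnt2-positive cells touches these genes. Tnnt2-positive Myh11-high cells had Des means of 5.07 and 5.46, and the Rgs5-bearing Myh11-high cells that the exclusions removed had 4.75 and 7.08. A Tnnt2 value of 1, just inside the limit, was present in 12 of 42 GLPG0187 and 2 of 23 vehicle cells, and its part in the difference was not tested. In those 64 and 12 removed cells, Des was above 0 in 40.6% and 41.7%, Pln in 50.0% of each and Isl1 in 20.3% and 16.7%. These shares rest on 12 vehicle cells, and the interval of the Isl1 difference there ran from -29.4 to 22.5 points. Over all 106 and 35 Myh11-high cells with Rgs5 of at least 3, Isl1 was above 0 in 24.5% and 8.57%, a difference of 16.0 points with an interval of -0.514 to 27.5.

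**Figure D3:**
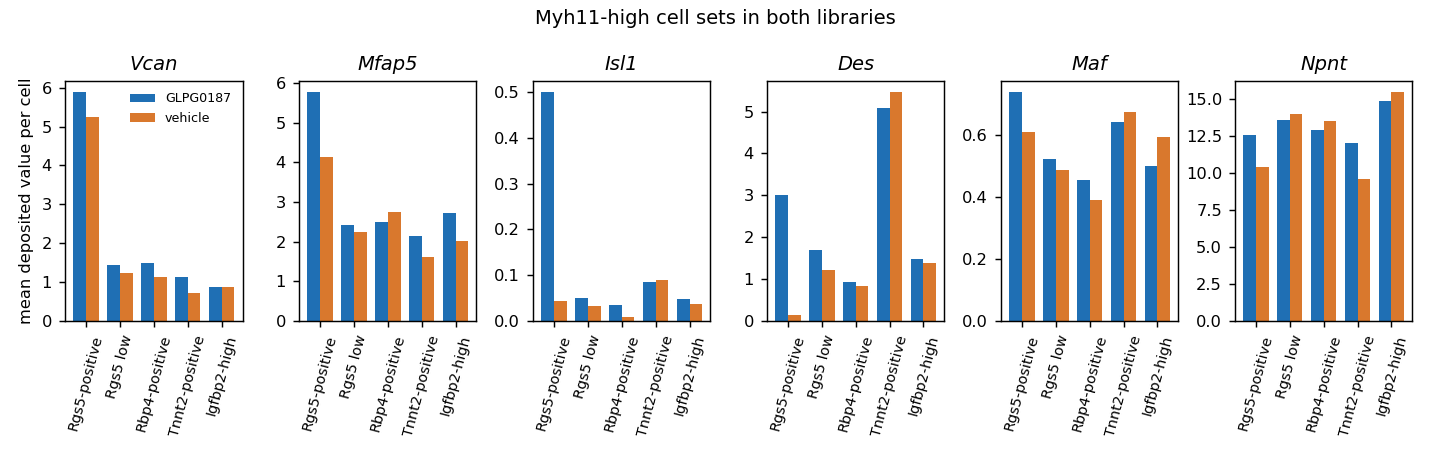
Mean deposited value per cell of 6 genes (vertical axes) in 5 sets of Myh11-high cells of both libraries, of which the Rbp4-positive cells lie within the Rgs5-low set. Vcan and Mfap5 are highest in the Rgs5-positive set of both libraries, Isl1 only in that of the GLPG0187 library, and Des in the Tnnt2-positive set.

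Set beside the neighbouring contractile cells, the Rgs5-positive cells had the highest mean Vcan and Mfap5 of the 5 sets in both libraries. Mean Vcan was 5.88 and 5.26, against 1.44 and 1.22 in Rgs5-low cells under the same exclusions, 1.48 and 1.14 in Rbp4-positive cells, 1.13 and 0.709 in Tnnt2-positive cells and 0.863 and 0.861 in Igfbp2-high cells. Mean Isl1 in the GLPG0187 library was 0.5, against 0.0494, 0.0356, 0.0851 and 0.0481 in the same order. Rgs5-bearing cells that the rule excluded were intermediate for Vcan, at 3.67 and 2.83. For Mfap5 they were at 4.91 and 4.50, against 5.76 and 4.13 in the selected cells, so in the vehicle library they were the higher of both. Rgs5-bearing cells with low Myh11 had far more Vcan, at 20.9 and 19.6.

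Over all 9948 measured genes (a mean of at least 0.1 in one of the sets compared), 251 (2.52%) were at least 1.5-fold higher in both libraries and 243 (2.44%) at least 1.5-fold lower. Every such value describes cells chosen by their own profile. On the scale of mean log2(value + 1), which weighs single high cells less, 2 genes were higher in both libraries (Vcan and Rgs4) and 3 lower (Bcam, Sncg and Clu). The same limit of 0.585 was used there, but differences on this scale are compressed at low values. Genes with low means can hardly reach it. Isl1 in the GLPG0187 library differed by 0.36 on this scale, at a log2 ratio of 2.78. In the GLPG0187 library alone 7.48% were higher and 10.5% lower, and in the vehicle library, with 23 cells, 16.9% and 13%. The 12 genes named as highest were Ndufa4l2, Vcan, Nr4a2, Nav1, Ppp1r15a, Tiparp, Rgs4, Mfap5, Nr4a1, Gadd45b, Klf4 and Mpp6. Ndufa4l2, a mitochondrial protein gene also listed among the pericyte markers, had log2 ratios of 3.52 and 3.49 that rested on 2 and 3 cells. Without the Higd1b cells its GLPG0187 log2 ratio was -2.06.

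**Figure D4:**
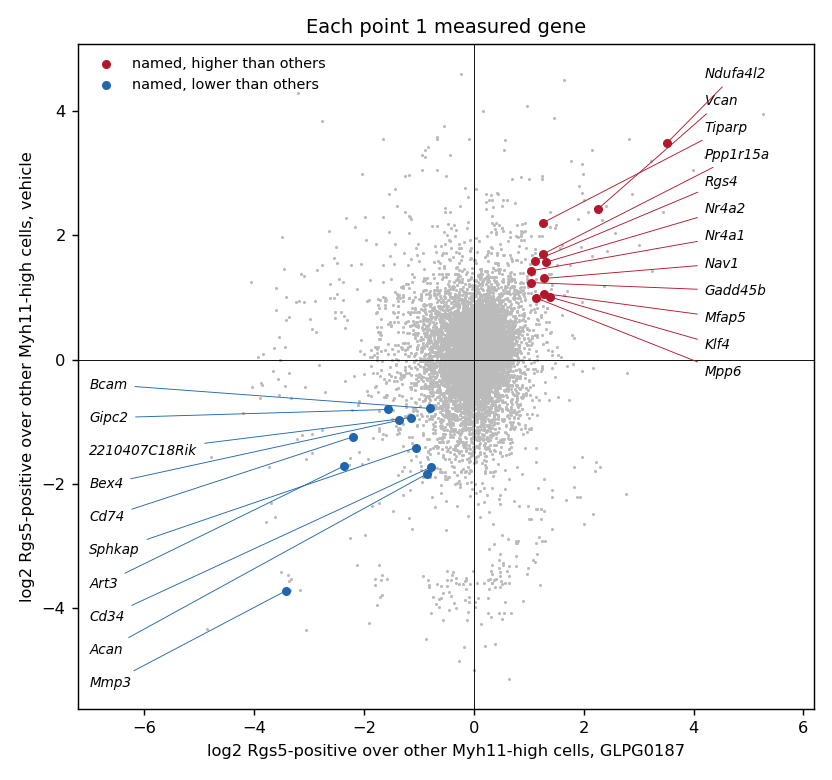
Log2 ratio of Rgs5-positive over other Myh11-high cells in the GLPG0187 library (horizontal axis) and the vehicle library (vertical axis), 1 point per measured gene, with the genes named as highest and lowest coloured. Vcan stands at 2.26 and 2.42 and Mmp3, above 0 in only 2 and 1 selected cells, at -3.42 and -3.71.

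Rgs4, another regulator of G protein signalling, was also higher in both libraries. It was above 0 in 34 of 42 and 21 of 23 selected cells (81.0% and 91.3%), against 58.2% and 57.2% of others, with means of 2.76 and 4.04 against 1.28 and 1.35. Its log2 ratio of 1.11 and 1.59 was 0.73 and 1.53 without the Higd1b cells. Of the 10 measured members of the RGS family besides Rgs5, Rgs4 and Rgs12 were higher, Rgs19 was lower and 7 were not apart in both libraries. Among 13 measured vascular G protein-coupled receptor genes and receptor partners, only Ednra, the endothelin A receptor, was higher, at 0.476 and 0.696 against 0.114 and 0.0802 (log2 1.98 and 2.98). Among 25 genes of G protein and calcium signalling, only Kcnj8, the pore subunit of the vascular ATP-sensitive potassium channel and also a pericyte marker, was higher, at 0.452 and 0.696 against 0.240 and 0.295. Median log2 ratios of these lists were -0.03 and 0.47, 0.11 and 0.28, and 0.11 and 0.28, beside 0.02 and 0.09 over all measured genes. Of all measured genes 2.52% were higher and 2.44% lower in both libraries. Without the Higd1b cells the RGS list had 1 member higher and 2 lower among 9 measured.

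Immediate early genes, which are induced within minutes by stress, dissociation or growth signals, were higher in part. Of 18 measured, Fosb, Jun, Egr1, Klf4 and Nr4a1 were higher and 0 lower in both libraries, with list medians of 0.41 and 0.72. Of all measured genes 2.52% were higher and 2.44% lower, at medians of 0.02 and 0.09. Without the Higd1b cells 3 were higher and 1 lower, at medians of 0.33 and 0.40. Nr4a1, an orphan nuclear receptor, ranged from 0 to 34 (median 1, mean 4.69) in the GLPG0187 cells and from 0 to 17 (median 2, mean 4.43) in the vehicle cells, against means of 2.29 and 1.66. Without the Higd1b cells its log2 ratio went from 1.04 and 1.43 to 0.67 and 1.10. Klf4, a factor linked to smooth muscle phenotype switching, averaged 3.69 and 2.30 against 1.43 and 1.15, and was at 0 in 21 of 42 and 14 of 23 cells. Ppp1r15a, a phosphatase subunit of the integrated stress response, averaged 2.71 and 3.04 against 1.14 and 0.942, and 55.7% of its vehicle sum came from 1 cell. Without the Higd1b cells its log2 ratio went from 1.26 and 1.70 to 0.76 and 0.60. Of 14 heat shock genes 0 were apart in either direction in both libraries, at medians of -0.03 and -0.12.

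Among signalling lists the counts were small. Each list count here stands beside 2.52% of all measured genes that were higher and 2.44% that were lower. In the Notch list Notch1 and Nrarp were higher of 8 measured (medians 0.25 and 0.83), and without the Higd1b cells 0 of 7 were. In the Wnt list the antagonist Sfrp2, at means of 3.98 and 2.61 against 1.70 and 1.61, and the target Axin2 were higher, and the antagonist Frzb was lower, of 10 measured. In the list for TGF-beta and BMP signalling Smad9 was higher and 1 gene lower of 23. Of 15 measured cardiac and second heart field factors 0 were higher in both libraries and 1 was lower. Mef2c, an abundant member of that list, averaged 4.12 and 4.30 against 4.15 and 4.33. None of the 12 measured integrin genes, 14 basement membrane genes, 10 MAF and AP-1 factors, 5 PDGF genes or 7 IGF genes was 1.5-fold apart the same way in both libraries. Of the matrix lists, Efemp1 was higher of 17 elastic fibre genes, Col12a1 of 8 fibrillar collagens, and Lum was higher and Acan lower of 15 proteoglycan genes. Prrx2 and Ebf2 were higher of 24 neural crest and regional factors, and Ankrd1 was lower of 14 intermediate filament and Z-disc genes. Isg15 and Oasl2 were higher and Ifit1 lower of 12 interferon genes, Cxcl2 and Ccl7 were lower of 13 inflammatory genes, and Errfi1 was higher and Tef lower of 14 circadian and glucocorticoid genes.

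Leaving out the Higd1b cells moved several of these counts. Over all 9825 genes then measured, the counts stayed within 1.5-fold of 251 higher and 243 lower, at medians of 0.02 and 0.09. Then 4 of 12 interferon genes were higher (Ifit2, Isg15, Irf7 and Oasl2) and Ifit1 lower, and all 4 MHC class II genes described next were lower. Lama2, a laminin chain, was higher of 14 basement membrane genes, and Socs3 was higher of 12 inflammatory genes. Of 14 circadian and glucocorticoid genes 0 were higher, and Tef and Tsc22d3 were lower. Prrx2 alone was higher of 22 neural crest and regional factors, and Wif1 took the place of Axin2 among 9 Wnt genes. The receptor list kept Ednra as its higher gene, but its GLPG0187 median went from 0.11 to -0.25.

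Among the 12 lowest genes were Mmp3, Art3, Cd74, Sphkap, Bex4, 2210407C18Rik, Acan, Gipc2, Bcam and Cd34. Art3, also listed among the pericyte markers, was above 0 in 11.9% and 17.4% of selected cells, against 32.4% and 31.1% of others. Its log2 ratio was -2.37 and -1.71. Mmp3 (stromelysin 1, a matrix protease) was above 0 in 2 of 42 and 1 of 23 selected cells, against 12.5% and 13.0% of others, a log2 ratio of -3.42 and -3.71. The exact 95% intervals of the selected shares, 0.582 to 16.2% and 0.110 to 21.9%, include the shares of the others. No selected cell had an Mmp3 value above 1. Acan (aggrecan) averaged 0.524 and 0.391 against 0.968 and 1.45. Bcam, a laminin-binding adhesion molecule, was lower by a similar factor in both libraries (log2 -0.80 and -0.78) and was detected in 95.2% and 82.6% of selected cells. Clu (clusterin, an extracellular chaperone) averaged 7.48 and 7.43 against 11.9 and 11.4. Sncg (gamma-synuclein) was above 0 in 35.7% and 52.2% of selected cells against 70.9% and 73.9% of others. Clu and Sncg were named after their values were seen, for the result on the log scale. Of 14 measured modulated smooth muscle genes, Tnfrsf11b, Cd34 and Cytl1 were lower and Lum higher, at medians of -0.83 and -0.52. Over all measured genes 2.44% were lower and 2.52% higher. Of 4 MHC class II genes, Cd74, H2-Aa and H2-Ab1 were lower. The comparison cells included cells with C1q, which the rule removes from the selected ones, and against cells under the same exclusions the list's GLPG0187 median was 0.36. Cd74 averaged 0.429 and 0.217, against 0.539 and 0.193 under those exclusions. It was above 0 in 33.3% and 13.0% of selected cells, against 26.8% and 11.1% of other Myh11-high cells. Under those exclusions the log2 ratios of Cd74 in the vehicle library and of Cd34 in the GLPG0187 library changed sign.

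Between the libraries, 13% of 9608 measured genes were at least 1.5-fold higher in the GLPG0187 cells than in the vehicle cells and 22.1% at least 1.5-fold lower. In other Myh11-high cells, which are many more, the shares were 0.831% and 0.55% of 9270. A gene beyond 1.5-fold is thus common in these 42 and 23 cells, and single genes are described against that background. The median log2 ratio of all measured genes was -0.11. The 12 genes chosen as higher had to keep their sign in both Xist-only and Y-only cells. Among them were Il17rc, Des, Pln, Kcnj15, Psd, Synj1, Nr1d1, Crispld1, Cxcl12, Stx8 and Fxyd5.

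**Figure D5:**
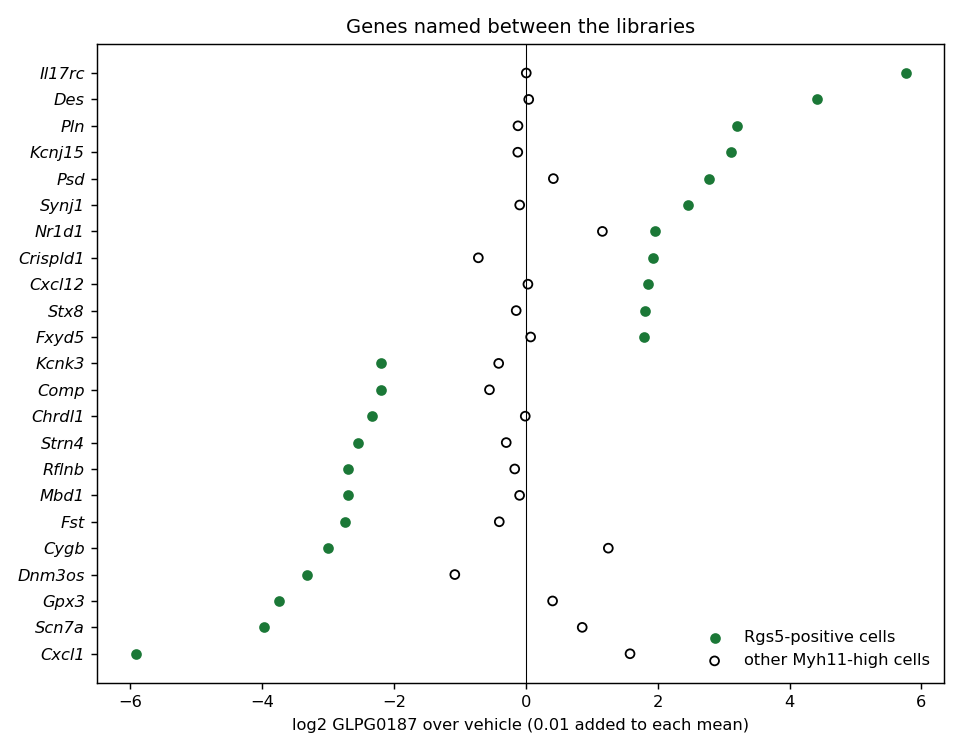
Log2 ratio of GLPG0187 over vehicle (horizontal axis) for the genes named between the libraries (vertical axis), in Rgs5-positive cells (filled) and in other Myh11-high cells (open). Nr1d1 is higher in both sets of cells, whereas Des and Pln stand near 0 in the others.

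Il17rc, a subunit of the interleukin 17 receptor, was above 0 in 18 of 42 GLPG0187 cells (42.9%) and listed at 0 in all 23 vehicle cells, and the means in other Myh11-high cells were 0.353 in both libraries. Cxcl12, a chemokine, was above 0 in 66.7% and 17.4% of the Rgs5-positive cells (means 1.29 and 0.348), against 36.0% and 35.0% of the others (0.782 and 0.770). Nr1d1, the circadian repressor REV-ERB alpha, averaged 1.05 and 0.261, and it was also higher in the other GLPG0187 cells (1.22 and 0.541). Its log2 ratio was 1.97 in the Rgs5-positive cells and 1.16 in the others. Mfap4, a microfibril protein gene of the elastic fibre list, averaged 6.02 and 2.00, against 4.06 and 4.18 in the others.

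The genes named as lower in the GLPG0187 cells were Cxcl1, Scn7a, Gpx3, Dnm3os, Cygb, Fst, Mbd1, Rflnb, Strn4, Chrdl1, Comp and Kcnk3. Several rested on 1 vehicle cell. The chemokine Cxcl1 averaged 0.0238 and 2.04, and 93.6% of the vehicle sum came from 1 cell with a value of 44, which was also a Higd1b-positive cell. One cell gave 88.0% of the vehicle sum of Gpx3, 82.1% of that of Cygb and 68.4% of that of Fst. Without each gene's highest cell the log2 ratios were -2.10 for Cxcl1, -0.84 for Gpx3, -0.63 for Cygb and -1.16 for Fst, in place of -5.91, -3.75, -3.00 and -2.74. Strn4 was spread more evenly, above 0 in 4 of 42 and 12 of 23 cells, as was Dnm3os, above 0 in 2 of 42 and 9 of 23. Dnm3os was also lower in the other GLPG0187 cells (log2 -1.08).

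Each gene list is given beside the 13% of all genes that were higher and the 22.1% that were lower. Of 16 contractile genes 2 were higher, among them Pln, and 0 lower, with a median of -0.02. Of 14 intermediate filament and Z-disc genes, Des, Actn2 and Ankrd1 were higher and 0 lower. Among 12 integrin genes, the family the drug is directed at, Itga5, Itgav and Itgb3 were higher and 0 lower, with a median of 0.10. Itgav, which encodes the alpha-v subunit itself, averaged 1 (above 0 in 64.3%) and 0.652 (47.8%), against 1.12 and 1.10 in the others. Of 14 cardiac and second heart field factors 4 were higher (Isl1, Gata6, Hand1 and Foxf1) and 4 lower (Gata4, Tbx18, Foxc2 and Tcf21). Gata6 averaged 2.05 and 1.35, against 1.65 and 1.45 in the others, and Hand1 was listed at 0 in the vehicle cells. Of 23 neural crest and regional factors 5 were higher and 10 lower, with a median of -0.51. Their Hox genes were split, with Hoxa3 and Hoxa5 higher and Hoxb2, Hoxb3 and Hoxb4 lower. Of 13 genes in the list for vascular G protein-coupled receptors 2 were higher (S1pr3 and P2ry2) and 6 lower (Ednrb, F2r, Tbxa2r, Htr2a, Npy1r and Adm, which encodes a ligand), with a median of -0.58.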

How the data were processed

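Single-cell RNA values of 2 libraries were analysed as deposited. Per the submitters' processing notes, Cell Ranger, Seurat and mm10 were used, with no roles or versions. The values deposited by the authors are whole numbers on a depth-corrected scale and were handled as a score. They are no UMI counts, since cell totals spanned only 12078 to 16719, and the raw depth is unknown. The sources used here do not give the method of correction.

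No count model was used. All deposited cells were kept. Scrublet (scanpy 1.11.5) called 48 and 16 cells doublets, 1 of them among the selected cells, and an alternative left them out. The libraries shared 5 cell barcodes, none among the selected cells. Log2 ratios compare values summed over a set, divided by the set's total, scaled to 14572.5 per cell, with 0.01 added. Means are of deposited values. Genes with a mean of at least 0.1 were measured, and genes of the rule, Xist, Tsix and Y-linked genes were left out of counts. A gene counts as higher or lower at 1.5-fold or more, in both libraries where cell sets are compared.

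The named genes were the 12 highest and the 12 lowest by the library nearer to 0, and the 12 highest and 12 lowest between libraries with the same sign in Xist-only and Y-only cells, each with a mean of at least 0.5 in the higher set. Some of them are not reported here. The cells, markers and 25 gene lists were chosen with earlier results of these data known. Scripts were tested on simulated data. Alternatives were other Rgs5 and Myh11 limits, sexes, depth, scaling, filters, the added value, a mean log scale, and, chosen after seeing the data, leaving out Higd1b-positive cells or each gene's highest cell. Python 3.11.15, numpy 2.4.6, scipy 1.17.1, pandas 2.3.3 and matplotlib 3.10.9 were used. Promoter windows are from RefSeq, GRCm38.p6, which is the assembly named mm10.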

Additional observations from a re-analysis of the deposited data

Results flagged for a closer look

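These genes stood higher than in other Myh11-high cells in one library and lower in the other. Apart from Isl1, all were already named above for their large ratios between the libraries in these same cells. The differences below thus partly repeat that choice. Of all measured genes, 7.48% were at least 1.5-fold higher and 10.5% lower in the GLPG0187 library, and 16.9% and 13% in the vehicle library. The number of measured genes with opposite signs is not given here. Each value below is the log2 ratio of Rgs5-positive over other Myh11-high cells in the GLPG0187 library minus that in the vehicle library. With 1 library per group none of these differences was tested, and 17 other settings were computed for each gene. The settings of the filter on low values cannot change a ratio, and other scalings changed the ratios little. Counts of settings with the same signs therefore overstate how stable a gene is. Isl1 differed by 3.00, from ratios of 2.78 under GLPG0187 and -0.22 under vehicle. Its vehicle ratio rests on 1 cell and was above 0 in 5 of the 17 settings (up to 0.86, Xist-only cells). Des differed by 4.38, from 0.13 and -4.24. Its GLPG0187 ratio was below 0 in 3 settings, at -0.17 with Rgs5 of at least 2, -0.07 without the highest cell and -0.05 without the Higd1b cells. Il17rc differed by 5.76, a value set by the 0.01 added, since it was listed at 0 in the vehicle cells. Kcnj15 differed by 3.24, Psd by 2.36, Synj1 by 2.55 and Cxcl12 by 1.83. Il17rc, Kcnj15, Psd and Synj1 kept both signs in all 17 settings and Cxcl12 in 16. The vehicle sign of Il17rc could not change in any subset of the vehicle cells, since all were at 0.

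In the opposite direction, Cxcl1 differed by -7.49, Gpx3 by -4.15, Cygb by -4.25 and Fst by -2.34, and for these 4 genes a single vehicle cell held most of the sum. Dnm3os differed by -2.24, Mbd1 by -2.61, Rflnb by -2.53 and Strn4 by -2.25. Cygb and Strn4 kept both signs in all 17 settings, Dnm3os, Mbd1 and Rflnb in 16, Cxcl1 and Gpx3 in 15 and Fst in 13.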

How the results depend on the processing

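Counts of genes depended strongly on the settings. Those on the log scale apply the same limit of 0.585 to differences that are compressed at low values. They are thus not counts of 1.5-fold differences. The 251 genes higher than in other Myh11-high cells became 383 at Rgs5 of at least 5, 474 in cells between the quartiles of detected genes, 579 among Xist-only cells and 418 among Y-only cells, 62 at a mean of at least 0.5, 419 without a filter, 94 with 0.1 added and 2 on the mean log2(value + 1) scale. The 243 lower became 157 at Rgs5 of at least 2, 575, 525 and 518 in those cell subsets, 35 and 1218 with those filters, 80 with 0.1 added and 3 on the log scale. Between libraries, the 1253 higher became 2404, 1971 and 2611 in the subsets, 335 and 2748 with the filters and 16 on the log scale; the 2120 lower became 3335 between the quartiles, 677 and 3306 with the filters and 24 on the log scale. Other scalings left all 4 counts within 1.5-fold; with the median ratio set to 0 they were 1548 and 1767 between libraries. The GLPG0187 share was 4.09% at Rgs5 of at least 2, and the vehicle share 6.63% among Xist-only cells and 2.37% among Y-only cells; the Xist-only difference was -3.97 points.

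Of 2540 values of single genes and list medians, 1962 stayed within 0.32 on the log2 scale, 567 moved further, and 11 that had been past 1.5-fold changed sign. Of 1180 that had been under 1.5-fold, 214 changed sign, 11 of them to past 1.5-fold. Log2 ratios against the other cells that had been past 1.5-fold changed sign for Ndufa4l2 to -2.00 (vehicle, between the quartiles), -1.78 (GLPG0187, Xist-only) and -2.06 (GLPG0187, without Higd1b cells), for Mfap5 to -0.30 (vehicle, Y-only), for Cd34 to 0.0059 (GLPG0187, Xist-only) and 0.058 (GLPG0187, same exclusions in the comparison cells), and for Cd74 in the vehicle library to 0.037 (Y-only), 0.040 (log scale) and 0.18 (same exclusions). The MHC class II median in the GLPG0187 library became 0.36 under the same exclusions. Gpx3 between libraries became 2.59 between the quartiles. The cause of these moves was not tested. The smallest subset had 9 vehicle cells. No paired analysis was possible because each group holds 1 library.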
